A study of Mus musculus with 13 samples.

Results

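The genes described here are those of glycolysis and of the transcriptional response to low oxygen, followed in mouse primary keratinocytes for 4 h after tamoxifen. A list of 34 genes holds the glucose transporter and the enzymes of glycolysis, lactate dehydrogenase and the lactate transporters, the kinases that regulate the pathway, Hif1a with its prolyl hydroxylases, and 9 further hypoxia-responsive genes. Members were found by symbol or older synonym among array probe sets annotated to that gene alone, and where a gene had several, the one with the highest mean over the 13 arrays stood for it. Of the 34 genes, 29 had such a probe set, out of 12394 genes on the array, and 24 were bright enough to enter the tests, out of 7436 genes tested.

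Every culture, the untreated one included, had been infected with a retrovirus that carries DNp63alpha, an isoform of the transcription factor p63, fused to an estrogen receptor domain. Tamoxifen binds that domain and so activates the fusion. Treated cells were collected at 20, 40, 60, 80, 100, 120, 140, 160, 180, 200, 220 and 240 min after tamoxifen, and 1 further array held untreated cells, so each time had 1 array and no replicate. The array called untreated here is so by its title, while its description, like those of the others, also mentions tamoxifen, and the label was not resolved further. The labels give no culture given tamoxifen without the fusion, no vehicle series and no age or strain of the animals.

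Glycolysis splits glucose into pyruvate, and lactate dehydrogenase reduces that pyruvate to lactate, which leaves the cell through monocarboxylate transporters. When oxygen is short, the HIF-1 transcription factor escapes the prolyl hydroxylases that mark it for breakdown, and it raises the transcription of most glycolytic genes together with genes of mitochondrial turnover, collagen modification and pH control. Keratinocytes of the basal epidermis are known to make much of their ATP by glycolysis and to release lactate.

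Levels are given as deposited intensities, in the arrays' linear units, and changes on the scale of log2(intensity + 16). Probes differ in how well they bind, so levels of different genes are not compared. A trend is the slope of a straight line through all 13 arrays, given as its change over 4 h with the SE. A step is the mean of the 9 arrays from 80 min on minus the mean of the 4 arrays up to 60 min, the untreated array included. The late window is 180 to 240 min, the middle window 100 to 160 min and the early window 20 to 80 min, with 4 arrays each. All p-values come from limma, were adjusted over the 7436 genes tested and were read at 0.05; the scatter between neighbouring times stood in for replicate error. Verbs of rise or fall refer to the trend test unless another is named.

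Array medians lay between 237 and 252 intensity units. Krt14 and Krt5, the keratins of basal keratinocytes, stood at the 100th and 99.9th percentile of all genes. The summed intensity of 10 keratinocyte markers was 62009 to 65155 from 80 min on and 61106 to 63860 up to 60 min. Melanocyte markers were also bright, with 6 of 6 on the array tested and sums of 6004 to 6671 from 80 min on and 6329 to 7247 up to 60 min. Of the markers of fibroblasts, immune cells and endothelium, 1 of 8, 2 of 6 and 0 of 4 passed the filter on dim genes. Their sums were 1176 to 1307, 1168 to 1434 and 404 to 446 from 80 min on, against 1239 to 1271, 1302 to 1502 and 414 to 437 up to 60 min. The 3 muscle markers, Acta2 among them, summed to 3160.4 to 3905 from 80 min on and 3098 to 3249 up to 60 min. Of all these non-keratinocyte markers, Mitf and Cd68 fell with the trend and Acta2 rose. Trp63, whose sequence is in part that of the fusion, rose 1.20-fold (adjusted p = 0.0426) over 4 h. The log2 ratio of the 3′ to the 5′ probe set of Actb, a sign of RNA integrity, was 0.34 at 80 min and 0.35 at 100 min and between 0.21 and 0.28 on the other 11 arrays. The same ratio for Gapdh was -0.13 at 80 min and lay between -0.15 and -0.094 over the 13 arrays. The part of these cells and of RNA integrity in the results was not tested beyond the covariate fit given below.

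Most tested members rose. The trend was called for 16 of 24 members (66.7%), against 39.9% of the 7436 genes tested. It was upward in 14 of 24 (58.3%), against 22.3% of all genes, and downward in 2 of 24 (8.33%), against 17.6% of all genes. The median slope of the 24 members was 0.068 log2 units per h, against 0.0049 over all genes tested. Pfkl, Pdk1, Ldhb, Bnip3, Pdk3 and Tpi1 had the steepest rises, between 1.40-fold and 2.0-fold over 4 h, and Ndrg1 and Hk2 were the genes that fell. A curve with 3 degrees of freedom in place of the line was called for 16 members (66.7%), against 24.9% of all genes. The late window was higher than the early one for 8 members (33.3%), against 15.1% of all genes, and lower for 2 (8.33%), against 11.1%. That total of 10 depended on single arrays: it was 5 when the 40 min array was left out, 6 for the 20 or the 220 min array and 17 for that at 80 min. With the Actb ratio as a covariate, the trend called 20 members (83.3%), 17 upward and 3 downward, against 46.1% of all genes.

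**Figure D1:**
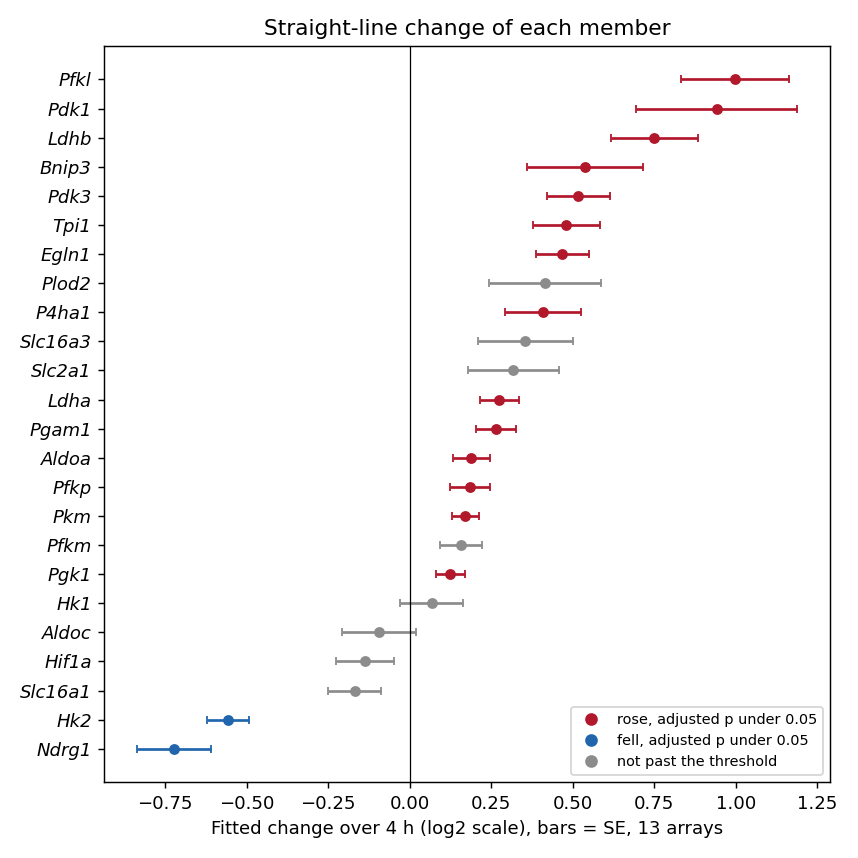
Change over 4 h on the log2 scale, taken from the fitted line, for each of the 24 tested members; points are estimates and bars are ± SE, red for called rises, blue for called falls and grey for no call, and genes run from the largest rise at the top to the largest fall at the bottom. Pfkl and Pdk1 lie farthest to the right at 1.0 and 0.94, and Hk2 and Ndrg1 farthest to the left at -0.56 and -0.72.

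Most members stood higher on the arrays from 80 min on. There, 16 members (66.7%) were higher than up to 60 min, against 21.7% of all genes, and 3 (12.5%) were lower, against 20.1%. For 11 members (45.8%, against 11.7% of all genes) all 9 arrays from 80 min on lay above all 4 arrays up to 60 min, and for Hk2 and Ndrg1 (8.33%, against 11% of all genes) they all lay below. In a fit with the line and the step side by side, the step was called upward for 11 members (45.8%, against 5.1% of all genes) and downward for 0, against 7.96% of all genes. In that fit the slope was called for 0 members, against 0.0134% of all genes, and at an unadjusted p under 0.05 for 3 members (12.5%), against 24.8% of all genes. The slope within the 80 to 240 min arrays was called for 0 members, against 0.0672% of all genes, and 14 of 24 members (58.3%) had a negative slope there, against 41.4% of all genes. At an unadjusted p under 0.05 that slope was called for 3 members (12.5%), against 18.3% of all genes. The break between 60 and 80 min had been seen in earlier results of these arrays, so the p-values of the step do not account for its choice. The 80 min array is also 1 of the 2 with a high Actb ratio. With that ratio as a covariate the step was called for 21 members (87.5%), against 46.8% of all genes, and without the 80 min array for 20 (83.3%), against 42.7% of all genes.

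**Figure D2:**
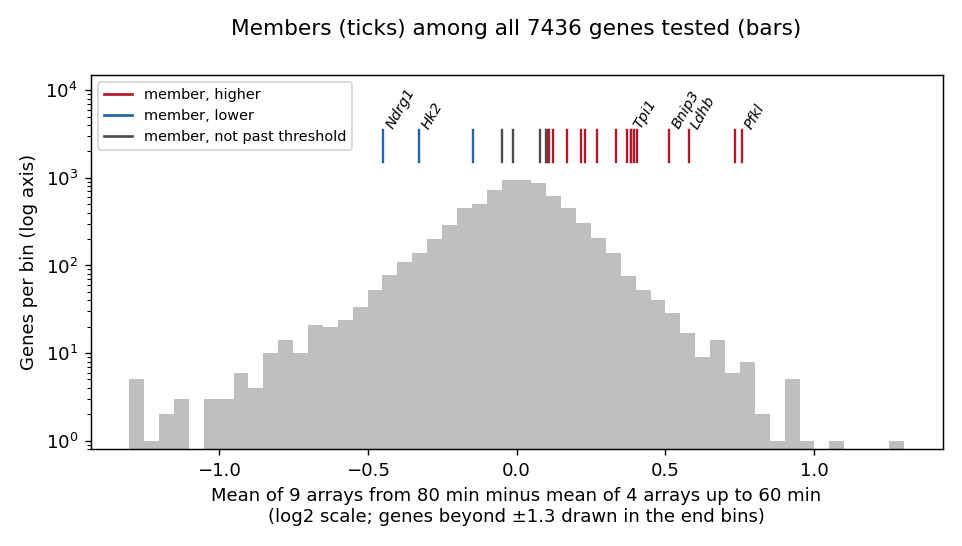
Mean of the 9 arrays from 80 min on minus mean of the 4 arrays up to 60 min, on the log2 scale (horizontal axis), with the number of all 7436 tested genes per bin as grey bars on a log axis and the 24 members as ticks above them. Ticks of the 16 members called higher reach 0.76 for Pfkl in the right tail, and those of the 3 called lower reach -0.45 for Ndrg1.

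**Figure D3:**
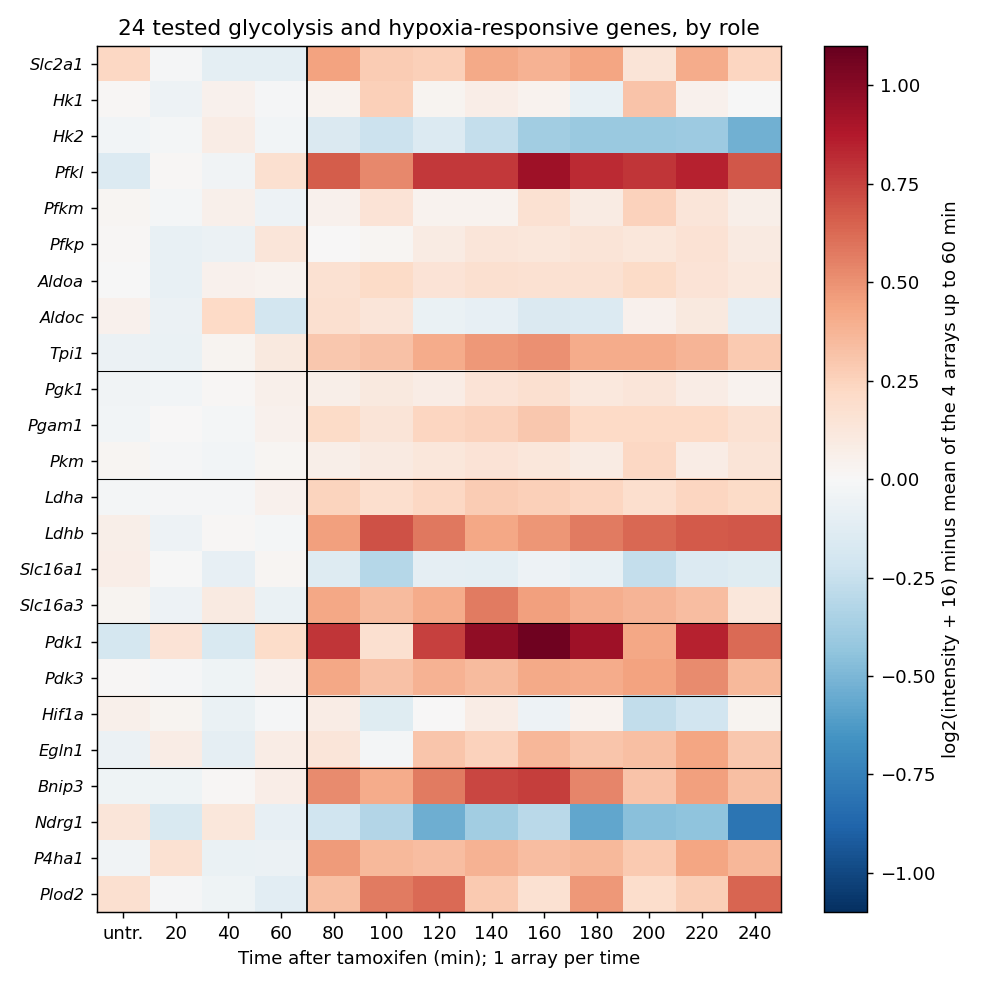
Log2(intensity + 16) of each array minus the gene's mean over the 4 arrays up to 60 min, for the 24 tested members, with time from untreated to 240 min running left to right, roles separated by thin lines and a thick line between 60 and 80 min; red is higher and blue lower. Most members turn red at 80 min and stay so, Pfkl and Pdk1 most deeply, and Hk2 and Ndrg1 turn blue.

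The bases around the transcription starts are shown for 6 members whose values carry the pattern: Ldha, Pfkl, Pdk1, Bnip3 and Tpi1, which were all higher from 80 min on, and Hk2, which was lower. Each is the RefSeq window of build GRCm38.p6 from 250 bases before to 50 bases after the first listed start, written 5′ to 3′ on the gene's strand. They lie at chr7:46845554-46845853 (plus strand) for Ldha, chr10:78009758-78010057 (minus strand) for Pfkl, chr2:71872974-71873273 (plus strand) for Pdk1, chr7:138909457-138909756 (minus strand) for Bnip3, chr6:124814109-124814408 (minus strand) for Tpi1 and chr6:82774405-82774704 (minus strand) for Hk2. Capitals mark every ACGTG or GCGTG on either strand, the core letters of the hypoxia response element.
Ldha: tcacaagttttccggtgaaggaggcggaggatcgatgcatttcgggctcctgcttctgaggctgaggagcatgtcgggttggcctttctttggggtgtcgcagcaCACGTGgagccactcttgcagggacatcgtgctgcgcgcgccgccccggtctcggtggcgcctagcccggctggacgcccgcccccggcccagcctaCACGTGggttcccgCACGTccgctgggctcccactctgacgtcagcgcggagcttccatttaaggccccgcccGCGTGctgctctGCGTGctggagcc
Pfkl: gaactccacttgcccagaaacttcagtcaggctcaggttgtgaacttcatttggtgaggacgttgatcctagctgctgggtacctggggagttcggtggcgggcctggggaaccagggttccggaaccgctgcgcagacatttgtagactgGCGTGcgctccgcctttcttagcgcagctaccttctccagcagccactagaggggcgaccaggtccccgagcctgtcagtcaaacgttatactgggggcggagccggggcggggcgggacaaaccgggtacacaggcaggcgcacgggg
Pdk1: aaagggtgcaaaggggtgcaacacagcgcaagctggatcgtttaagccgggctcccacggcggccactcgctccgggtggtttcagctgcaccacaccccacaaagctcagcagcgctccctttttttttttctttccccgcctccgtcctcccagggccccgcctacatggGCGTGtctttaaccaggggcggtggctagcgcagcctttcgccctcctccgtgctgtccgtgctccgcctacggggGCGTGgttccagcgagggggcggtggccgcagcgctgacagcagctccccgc
Bnip3: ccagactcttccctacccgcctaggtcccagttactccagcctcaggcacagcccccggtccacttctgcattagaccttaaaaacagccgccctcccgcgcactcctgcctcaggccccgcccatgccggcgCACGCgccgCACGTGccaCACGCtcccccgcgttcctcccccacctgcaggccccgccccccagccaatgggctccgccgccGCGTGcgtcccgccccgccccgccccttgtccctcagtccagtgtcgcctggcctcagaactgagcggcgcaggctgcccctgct
Tpi1: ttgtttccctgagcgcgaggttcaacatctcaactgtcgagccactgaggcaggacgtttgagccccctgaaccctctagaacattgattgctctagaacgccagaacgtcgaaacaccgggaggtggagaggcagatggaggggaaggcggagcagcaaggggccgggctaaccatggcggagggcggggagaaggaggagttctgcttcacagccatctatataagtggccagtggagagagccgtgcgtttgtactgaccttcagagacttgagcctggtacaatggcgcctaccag
Hk2: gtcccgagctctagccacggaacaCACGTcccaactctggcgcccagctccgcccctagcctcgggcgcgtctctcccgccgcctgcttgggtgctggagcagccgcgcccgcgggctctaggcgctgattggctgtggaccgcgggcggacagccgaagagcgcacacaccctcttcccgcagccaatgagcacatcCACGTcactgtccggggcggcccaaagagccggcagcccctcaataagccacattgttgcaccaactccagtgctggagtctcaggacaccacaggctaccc
These windows hold 7 matches in Ldha, 5 in Bnip3, 2 in Pdk1, 2 in Hk2, 1 in Pfkl and 0 in Tpi1, with a palindromic CACGTG counted once on each strand. RefSeq windows were matched for 31 of the 34 members, and those of Bnip3l, Ndrg1 and Plod2 were not matched. Of the 31 windows, 26 (83.9%) held at least 1 match, against 66.1% of 6066 tested genes with a window and 43.8% of all 27025 promoters. ACGTG alone was present in 61.3% of the members' windows, against 27.1% of the tested genes and 19.7% of all promoters. Among members with a window, 12 of the 15 that were higher from 80 min on (80.0%) held a match, against 6 of the 7 other tested members (85.7%). A match is a run of letters and no evidence of binding.

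Uptake and the upper reactions of glycolysis counted 10 members, with 9 on the array and all 9 tested. Pfkl, Aldoa, Tpi1 and Pfkp rose, Hk2 fell, and 4 did not pass the trend test. Pfkl, the liver-type subunit of phosphofructokinase, which catalyses the committed reaction, had 1084 to 1434 (median 1291) from 80 min on, against 670.4 in untreated cells and 754, 724 and 844 at 20, 40 and 60 min. All 9 later arrays lay above the 4 earlier ones, and Pfkl rose 2.0-fold over 4 h (log2 change 1.0 ± 0.17, adjusted p = 0.000425). The step of Pfkl was 0.76 ± 0.068 (adjusted p = 1.42e-06), the 80 min array stood 1.41-fold above the 60 min array, and its late window exceeded its early one by 0.58 ± 0.13 (adjusted p = 0.00853). That late against early call was lost when the 200 and 220 min arrays were both left out. The highest array of Pfkl was that at 160 min.

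The other phosphofructokinase subunits had smaller fitted changes. Pfkp, the platelet-type subunit, had 873 to 973 (median 949) from 80 min on, against 881 in untreated cells and 821, 831 and 958 at 20, 40 and 60 min. The ranges overlapped, the 60 min array was already at the level of the later ones, and Pfkp rose 1.14-fold over 4 h (log2 change 0.19 ± 0.06, adjusted p = 0.0237). Its step did not pass, at 0.098 ± 0.045 (adjusted p = 0.0927), but did with the Actb ratio as a covariate (adjusted p = 0.0146) and without the 60 min array (adjusted p = 0.0165). Fitted among all probe sets, the trend of the other Pfkp probe set was not called, with a slope of 0.018 log2 units per h (adjusted p = 0.635). Pfkm, the muscle-type subunit, had 252 to 295 (median 263) from 80 min on, against 249.5 in untreated cells and 242, 256 and 236 at 20, 40 and 60 min. Its trend of 0.16 ± 0.065 (adjusted p = 0.0644) and its step of 0.11 ± 0.043 (adjusted p = 0.0539) both missed the threshold. The step of Pfkm passed under 7 alternatives, among them without the 80, 120 or 140 min array, with adjusted p between 0.0357 and 0.0494. No test of the difference between the subunits was made.

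Hk2, the inducible hexokinase that traps glucose in the cell as its phosphate, fell. Its intensity was 947 to 1237 (median 1048) from 80 min on, against 1346 in untreated cells and 1350.2, 1458 and 1348 at 20, 40 and 60 min. All 9 later arrays lay below the 4 earlier ones, and Hk2 fell 1.47-fold over 4 h (log2 change -0.56 ± 0.064, adjusted p = 9.79e-05). The late minus early difference of Hk2 was -0.41 ± 0.063 (adjusted p = 0.00354). Within the 80 to 240 min arrays the slope of Hk2 was -0.13 log2 units per h (adjusted p = 0.0652), and its lowest array was the last, at 947. Hk1, the widely expressed hexokinase, had 675 to 889 (median 734) from 80 min on, against 721 in untreated cells and 688, 737 and 709 at 20, 40 and 60 min. Apart from 861 at 100 min and 889 at 200 min the arrays of Hk1 did not separate, and its trend of 0.067 ± 0.096 (adjusted p = 0.609) did not pass.

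Slc2a1, which encodes the main glucose transporter of these cells, had 1422 to 1751 (median 1681) from 80 min on, against 1507 in untreated cells and 1276, 1189.9 and 1193 at 20, 40 and 60 min. The untreated array lay within the later range and the 3 arrays at 20 to 60 min lay below all later ones. The trend of Slc2a1 did not pass, at 0.32 ± 0.14 (adjusted p = 0.0829), whereas its step did, at 0.34 ± 0.068 (adjusted p = 0.00111). Its highest array was that at 80 min, 1.47-fold above 60 min.

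Aldolase cuts the hexose, and triose phosphate isomerase interconverts the resulting trioses. Tpi1, the isomerase, had 4547 to 5297 (median 4954) from 80 min on, against 3564 in untreated cells and 3552, 3814 and 4016 at 20, 40 and 60 min. The groups did not overlap, Tpi1 rose 1.40-fold over 4 h (log2 change 0.48 ± 0.10, adjusted p = 0.00215), and its step was 0.39 ± 0.044 (adjusted p = 9.69e-06). It peaked at 160 min and at 240 min stood at 0.86 of that value. Aldoa, the main aldolase outside liver and brain, had 6266 to 6701 (median 6522) from 80 min on, against 5775 in untreated cells and 5479, 5977 and 5969 at 20, 40 and 60 min. All later arrays lay above the earlier ones by a small margin, and Aldoa rose 1.14-fold over 4 h (log2 change 0.19 ± 0.057, adjusted p = 0.0155). Aldoc, the brain-type aldolase, had 370.5 to 472 (median 395) from 80 min on, against 431 in untreated cells and 397, 487 and 359 at 20, 40 and 60 min, and neither its trend of -0.093 ± 0.11 (adjusted p = 0.542) nor its step of -0.011 ± 0.078 (adjusted p = 0.921) passed. The Aldoa probe set is of the kind that can also bind related transcripts. Fitted among all probe sets, the trend was called for 2 of the 4 probe sets of Aldoa. No probe set of Gpi1 passed the rule, so hexose phosphate isomerase is not described.

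The lower reactions, in which ATP is made, counted 4 members, of which Pgk1, Pgam1 and Pkm were tested and Eno1 had no probe set of its own. All 3 rose, by small amounts at high intensity. Pgam1, phosphoglycerate mutase, had 5884 to 6532 (median 6202) from 80 min on, against 5214 in untreated cells and 5329, 5244 and 5516 at 20, 40 and 60 min. Its groups did not overlap, and Pgam1 rose 1.20-fold over 4 h (log2 change 0.27 ± 0.062, adjusted p = 0.00371) with a step of 0.22 ± 0.027 (adjusted p = 1.76e-05). Pkm, pyruvate kinase, had 8122 to 9073 (median 8466) from 80 min on, against 7896 in untreated cells and 7683, 7613 and 7872 at 20, 40 and 60 min. Its later arrays also lay above all earlier ones, and Pkm rose 1.13-fold over 4 h (log2 change 0.17 ± 0.042, adjusted p = 0.00491). Pgk1, phosphoglycerate kinase, had 6915 to 7614 (median 7255) from 80 min on, against 6590.4 in untreated cells and 6620.4, 6801 and 7003 at 20, 40 and 60 min. The 60 min array of Pgk1 lay inside its later range, and Pgk1 rose 1.09-fold over 4 h (log2 change 0.12 ± 0.046, adjusted p = 0.0403). Fitted among all probe sets, none of the 3 probe sets of Pgk1 was called.

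Among the 4 lactate genes, both dehydrogenase subunits rose. Ldha, the subunit that favours lactate formation and a classical HIF-1 target, had 10754 to 11488 (median 11149.9) from 80 min on, against 9302 in untreated cells and 9392, 9365 and 9759 at 20, 40 and 60 min. Its 9 later arrays lay above all 4 earlier ones, Ldha rose 1.21-fold over 4 h (log2 change 0.27 ± 0.06, adjusted p = 0.00247), and its step was 0.23 ± 0.02 (adjusted p = 1.12e-06). Ldhb, the heart-type subunit, had 674 to 819 (median 756) from 80 min on, against 522 in untreated cells and 479, 504 and 491 at 20, 40 and 60 min. The groups were far apart for Ldhb, which rose 1.68-fold over 4 h (log2 change 0.75 ± 0.13, adjusted p = 0.000645), with a step of 0.58 ± 0.055 (adjusted p = 2.07e-06) and a late window above the early one by 0.54 ± 0.099 (adjusted p = 0.00462). All 4 probe sets of Ldhb were called upward. The 80 min array stood 1.40-fold above the 60 min array for Ldhb and 1.15-fold for Ldha.

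The monocarboxylate transporters did not pass the trend test. Slc16a3, the lactate exporter of glycolytic cells, had 193 to 268 (median 236) from 80 min on, against 179 in untreated cells and 168, 189.5 and 166 at 20, 40 and 60 min. All later arrays lay above the earlier ones, and although its trend of 0.35 ± 0.15 (adjusted p = 0.0653) did not pass, its step of 0.38 ± 0.062 (adjusted p = 0.000187) did. Its lowest later array was the last, at 193. Slc16a1, a lactate and pyruvate transporter, had 1243 to 1491 (median 1412) from 80 min on, against 1628 in untreated cells and 1544, 1452 and 1568 at 20, 40 and 60 min. Its trend of -0.17 ± 0.082 (adjusted p = 0.111) did not pass, and its step was downward, at -0.15 ± 0.049 (adjusted p = 0.024). That call was lost without the untreated, the 20 min or the 60 min array, with adjusted p between 0.0529 and 0.0926, and with quantile normalization (adjusted p = 0.0764).

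**Figure D4:**
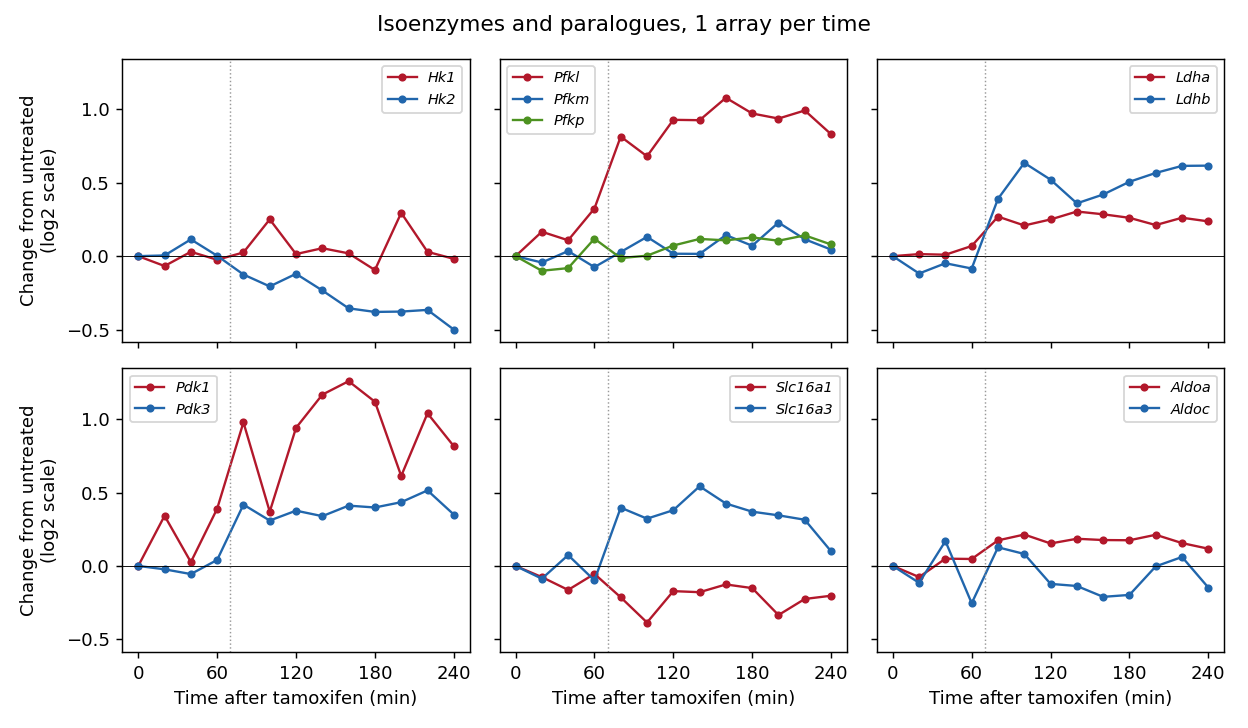
Change from the untreated array on the log2 scale against time after tamoxifen in min, 1 point per array, for 6 sets of isoenzymes or paralogues, with a dotted line between 60 and 80 min. Pfkl, Ldhb, Pdk3 and Slc16a3 climb between 60 and 80 min, and Pdk1 climbs with dips at 100 and 200 min. Hk2 declines from 80 min on, and Pfkm and Pfkp stay near the untreated level. Aldoa lies slightly above its untreated level from 80 min on.

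Of the 4 regulators of flux, Pdk1 and Pdk3 were tested and both rose. Both are kinases that inhibit pyruvate dehydrogenase and so limit the entry of pyruvate into the citric acid cycle, and Pdk1 is a HIF-1 target. Pdk1 had 314 to 596 (median 487) from 80 min on, against 239.6 in untreated cells and 308, 244 and 319 at 20, 40 and 60 min. Its later arrays overlapped the earlier ones at 100 min, where it read 314, and it also dipped to 375 at 200 min. Pdk1 rose 1.92-fold over 4 h (log2 change 0.94 ± 0.25, adjusted p = 0.00763) with a step of 0.73 ± 0.14 (adjusted p = 0.000649), while its late and early windows did not differ past the threshold, at 0.46 ± 0.21 (adjusted p = 0.116). Pdk3 had 460.2 to 533 (median 490.5) from 80 min on, against 368 in untreated cells and 362, 354 and 379 at 20, 40 and 60 min. Its groups did not overlap, Pdk3 rose 1.43-fold over 4 h (log2 change 0.52 ± 0.097, adjusted p = 0.000935), and its step was 0.40 ± 0.039 (adjusted p = 2.47e-06). Pfkfb3, which makes the activator of phosphofructokinase, was too dim to be tested, with 148 to 175 from 80 min on and 179 to 188 up to 60 min, with every later array below every earlier one. Pfkfb4 had no probe set of its own.

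Of the oxygen-sensing genes, Egln1 rose and Hif1a did not pass. Egln1, the main prolyl hydroxylase that marks HIF alpha subunits for breakdown and itself a HIF target, had 675 to 931 (median 847) from 80 min on, against 653 in untreated cells and 722, 638 and 725 at 20, 40 and 60 min. The ranges overlapped at the 100 min array, Egln1 rose 1.38-fold over 4 h (log2 change 0.47 ± 0.082, adjusted p = 0.000601), its step was 0.27 ± 0.07 (adjusted p = 0.0061), and both of its probe sets were called upward. Hif1a, the oxygen-regulated subunit of HIF-1, had 1526 to 1956 (median 1854) from 80 min on, against 1925 in untreated cells and 1886, 1753 and 1828 at 20, 40 and 60 min. Its trend of -0.14 ± 0.09 (adjusted p = 0.243) and its step of -0.049 ± 0.064 (adjusted p = 0.571) did not pass, its 2 lowest arrays were those at 200 and 220 min, and its 4 probe sets differed in the sign of their slope. HIF-1 is regulated mainly at the protein level, which was not measured here. Egln3, an inducible hydroxylase, was too dim to be tested. It had 169 to 224 from 80 min on and 156 to 164 up to 60 min, with every later array above every earlier one.

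Of the 9 other hypoxia-responsive genes, 7 were on the array and 4 were tested. Bnip3 and P4ha1 rose, Ndrg1 fell, and Plod2 did not pass the trend test. Bnip3, a mitochondrial protein of mitophagy and cell death, had 348 to 480.4 (median 403) from 80 min on, against 267 in untreated cells and 268, 280.1 and 293 at 20, 40 and 60 min. Its groups did not overlap, Bnip3 rose 1.45-fold over 4 h (log2 change 0.54 ± 0.18, adjusted p = 0.0261), and its step was 0.51 ± 0.076 (adjusted p = 9.03e-05). The trend call was lost without the untreated, 20 or 40 min array, with adjusted p between 0.0615 and 0.099. After a peak at 160 min it stood at 0.73 of that value at 240 min. P4ha1, a catalytic subunit of the enzyme that hydroxylates collagen prolines, had 230.0 to 262 (median 242) from 80 min on, against 180.1 in untreated cells and 211, 176 and 177 at 20, 40 and 60 min. All later arrays lay above the earlier ones, P4ha1 rose 1.33-fold over 4 h (log2 change 0.41 ± 0.12, adjusted p = 0.0122) with a step of 0.37 ± 0.047 (adjusted p = 2.2e-05), and its highest array was that at 80 min. Plod2, a lysyl hydroxylase of collagen, had 365 to 511 (median 410.2) from 80 min on, against 367 in untreated cells and 318, 311 and 296 at 20, 40 and 60 min. Its trend of 0.41 ± 0.17 (adjusted p = 0.0674) did not pass but its step did, at 0.40 ± 0.092 (adjusted p = 0.00294), and its highest array was the last.

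Ndrg1, a stress-responsive gene that is also raised in differentiating cells and by hypoxia, went the other way. It had 789 to 1194 (median 1019) from 80 min on, against 1524 in untreated cells and 1233, 1517 and 1305 at 20, 40 and 60 min. Each later array lay below each earlier one, Ndrg1 fell 1.65-fold over 4 h (log2 change -0.72 ± 0.11, adjusted p = 0.000289), and all 5 of its probe sets were called downward. Its step was -0.45 ± 0.091 (adjusted p = 0.00119) and its late minus early difference -0.48 ± 0.092 (adjusted p = 0.00518). The probe set shown can also bind related transcripts. P4ha2, Plod1 and Car9 lay under the filter on dim genes, at the 38.8, 21.4 and 17.6 percentile of all genes against the 40th percentile required, and Slc16a3 and P4ha1 were just above it at 40.4 and 42. Bnip3l and Ankrd37 had no probe set of their own.

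Within the arrays from 80 min on, the members' slopes had both signs and none passed the threshold. Egln1 had 0.11 ± 0.036 log2 units per h there (adjusted p = 0.175). Of the 14 that rose, 6 were highest at 160 min, 3 at 220 min, 2 at 100 min and 1 each at 80, 140 and 200 min. The late and the middle window did not differ past the threshold for any of the 24 members or of the 7436 genes (0 and 0%). At an unadjusted p under 0.05 they differed for 1 member (4.17%), against 5.7% of all genes. That member was Hk2, with a late minus middle difference of -0.18 ± 0.063 (adjusted p = 0.73). The early window, whose 80 min array lies after the step, differed from the untreated array past the threshold for 0 members and 0% of genes. At an unadjusted p under 0.05 they differed for 0 members, against 1.51% of all genes. Within the 4 arrays up to 60 min the slope was called for 0 members and 0% of genes, and at an unadjusted p under 0.05 for 4 members (16.7%), against 9.67% of all genes.

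Of the 14 rises, 5 lost their trend call without single arrays. The trend call of Pgk1 was lost without the untreated, 20, 40, 160, 180 or 200 min array, that of Pfkp without the 20, 40 or 220 min array, and that of Aldoa without the untreated or 20 min array. Bnip3 lost its call as given above, and P4ha1 without the untreated array. Across these fits, 12 to 19 members were called. Of the 15 tested members with several probe sets, 14 had the same sign of slope in all of them, and Hif1a was the exception. When the probe sets of a gene were averaged, the trend was called for 12 members (50%), against 40.1% of all genes.

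Other genes of these pathways were followed in the same way. Of 21 other glycolytic genes and isoenzymes, 7 were tested, of which 4 rose and 0 fell, against 22.3% and 17.6% of all genes. Their median slope was 0.027 log2 units per h, against 0.0049 over all genes. Ldhc, the testis-type lactate dehydrogenase subunit, rose 1.42-fold (adjusted p = 0.00448), Pklr, the liver and red cell pyruvate kinase, 1.29-fold (adjusted p = 0.00572), Bpgm, which makes bisphosphoglycerate, 1.22-fold (adjusted p = 0.0114), and Gapdh, which follows aldolase in the pathway, 1.08-fold (adjusted p = 0.0116). Gapdh read 12281 to 13515 (median 13113) from 80 min on, against 12450.5 in untreated cells and 12261, 12236 and 13028 at 20, 40 and 60 min, with overlapping ranges. The probe set read for Gapdh was the 5′ control probe set that also enters the Gapdh ratio given above. Whether the probe sets of Ldhc and Pklr also bind transcripts of the related Ldha, Ldhb and Pkm was not tested.

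Other HIF targets and regulators moved in both directions. Of 47 listed, 34 were tested, 9 rose and 11 fell, against 22.3% and 17.6% of all genes, with a median slope of -0.012 log2 units per h, against 0.0049 over all genes. The largest slopes past the threshold were all falls: Adm, the vasodilator peptide adrenomedullin, fell 2.91-fold (adjusted p = 0.000454), Hmox1, heme oxygenase, 2.61-fold (adjusted p = 0.00018), Ccng2, an atypical cyclin, 2.28-fold (adjusted p = 9.81e-05), and Bhlhe40, a transcriptional repressor, 2.04-fold (adjusted p = 8.34e-05). Vegfa, the angiogenic growth factor, fell 1.43-fold (adjusted p = 0.00548). Among those that rose were Car12, a carbonic anhydrase, at 1.81-fold (adjusted p = 0.00399), Fam162a at 1.74-fold (adjusted p = 0.00352) and Higd1a, a mitochondrial protein, at 1.5-fold (adjusted p = 0.00262). Vegfa, Car12, Fam162a and Higd1a were picked after their values were seen.

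Pathways that branch from glycolysis were mixed. Of 41 genes of pyruvate entry, the pentose phosphate pathway, glycogen and hexose metabolism, glycerol phosphate and serine synthesis, gluconeogenesis and the malate shuttle, 29 were tested. Of these, 10 rose and 3 fell, against 22.3% and 17.6% of all genes, with a median slope of 0.022 log2 units per h, against 0.0049 over all genes. Gyg, glycogenin, which primes glycogen synthesis, rose 1.58-fold (adjusted p = 0.000273), Pgm1, phosphoglucomutase, 1.38-fold (adjusted p = 0.000596), and Mdh1, the cytosolic malate dehydrogenase, 1.36-fold (adjusted p = 0.000129). Dld, a subunit of pyruvate dehydrogenase and related complexes, fell 1.35-fold (adjusted p = 0.0132). None of the 3 tested genes of gluconeogenesis passed the trend test.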

How the data were processed

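Total RNA from each culture was labelled as biotinylated cRNA by the standard Affymetrix protocol, per the labels' protocols, and hybridised to 1 array per time. The deposited files hold linear intensities, 1 per probe set and array, already brought to a common level by the authors, with software not given in the sources used. A change shared by most transcripts would be lost in such scaling.

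Of 22690 probe sets, 20393 had 1 gene in the platform annotation, 691 several and 1606 none, and 20364 were given current symbols by Entrez identifier through a RefSeq table (GRCm38.p6). Intensities were used as log2(intensity + 16), which understates changes of dim genes. Genes under the 40th percentile of mean level (log2 level of 7.83) were left out. limma 3.58.1 in R 4.3.3 fitted all models (eBayes with trend, two-sided tests), with Benjamini-Hochberg adjustment over 7436 genes in the main tests. The code was tested on simulated data.

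The labels do not say if each time had its own culture. P-values therefore reflect the spread among these arrays alone, and the number of arrays limits the precision (median residual SD of 0.087 on the log2 scale). In bulk RNA, fewer cells of a type and less RNA per cell cannot be told apart. The members, the gene lists and the break at 60 to 80 min were chosen with earlier results of these data known. All tested members were named, and from each further list the up to 4 genes with the largest slope past the threshold. Vegfa, Car12, Fam162a and Higd1a were named outside that rule, after their values were seen. Alternatives were another pseudocount, filter, scaling, probe set choice and test, array weights, the Actb ratio as a covariate, parts of the course and leaving out each array. The centring on all probe sets, the fit up to 60 min, the late against middle windows and the alternatives of the step were added after seeing the data.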

Additional observations from a re-analysis of the deposited data

How the results depend on the processing

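No paired analysis was possible because each time had 1 array. Leaving out each array in turn, the trend called 2322 to 3087 genes and 12 to 19 members, the spline 1245 to 2457 genes and 14 to 17 members, the late against early windows 986 to 2708 genes and 5 to 17 members, the step 2455 to 3172 genes and 18 to 20 members, and the early window against untreated 0 to 0 genes. With the step as a block the trend called 1 gene and 0 members, within 80 to 240 min 5 genes and 0 members, and within the arrays up to 60 min 0 genes and 0 members; these fits hold fewer arrays or 1 more term. In them no member's slope passed the threshold. Among members with a called trend, slopes reversed for Aldoa (-0.0074 with the block, -0.015 within 80 to 240 min), Bnip3 (-0.050 and -0.065) and P4ha1 (-0.022 and -0.016). They also reversed within 80 to 240 min for Pgk1 (-0.0066), Pgam1 (-0.00049) and Ldha (-0.0046). Up to 60 min they reversed for Hk2 (0.035), Pkm (-0.0079), Ldhb (-0.055) and P4ha1 (-0.093). Among members with no called trend, Slc2a1, Slc16a3, Plod2 and Hk1 turned negative with the block and within 80 to 240 min. Slc16a1 turned positive in both of these fits. Up to 60 min, Slc2a1, Slc16a3, Plod2 and Pfkm turned negative.

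Of 695 trend values of single members under all alternatives, 597 kept their side of the threshold, 59 lost their call and 26 gained one. The other 13 reversed direction where a trend was called. A member called neither in the main fit nor in the alternative counted among the 597, whatever the sign of its slope.

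The late against early comparison called 3550 genes and 20 members with array weights, and 634 genes (268 up, 366 down) and 4 members without the 200 and 220 min arrays, where the trend called 15 members. It called 986 genes and 6 members without the 20 min array, 1050 and 5 without 40 min, 1191 and 6 without 220 min, and 17 members without 80 min. Centred on the median of all probe sets it called 812 genes up and 1035 down, against 1124 up and 823 down as deposited, and 6 members up and 2 down. With no filter on dim genes the early window differed from untreated for 1 gene. The cause of these shifts was not tested.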

Other observations

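Bnip3l, a mitophagy receptor related to Bnip3, shared all 3 of its probe sets with the pseudogene Bnip3l-ps and entered no test. The brightest of them read 2663 to 3803 from 80 min on, against 3051 to 4189 up to 60 min, and the others read 1083 to 1577 and 889 to 1123 from 80 min on, against 1096 to 1299.7 and 787 to 997 up to 60 min. The ranges overlapped for all 3.

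The dim members were fitted among all 12394 genes on the array, with no filter. Plod1, a collagen lysyl hydroxylase, had a slope of 0.047 log2 units per h (adjusted p = 0.0119) and Pfkfb3 one of -0.056 (adjusted p = 0.0145). Egln3 (adjusted p = 0.288), P4ha2 (adjusted p = 0.145) and Car9 (adjusted p = 0.0781) did not pass. On the arrays at 100 and 200 min, Hk1 had its 2 highest values and Pdk1 its 2 lowest from 80 min on.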
